A study of Mus musculus with 6 samples.

Results

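The genes described here are 10 genes of the amino acid stress response that the transcription factor ATF4 is known to control: Atf3, Ddit3, Trib3, Chac1, Ddit4, Sesn2, Asns, Psat1, Phgdh and Slc7a11. They were chosen by name, and a probe was taken where its RefSeq accession maps to one of those symbols. This gave 12 probes of the 55646 on the array and 10 genes of 20274 named genes. All 10 passed the filter on dim probes and are among the 14773 genes tested. Psat1 and Phgdh have 2 probes each and the other genes have 1.

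The cells were mouse epiblast stem cells (EpiSCs) of the 129/Sv strain, which are pluripotent cells like those of the epiblast after implantation. Cells of the EpiSC group stayed in their epiblastic maintenance condition, and those of the NPC1 and NPC2 groups spent 1 day and 2 days in a neural plate developmental condition. Each group held 2 cultures, A and B, raised from a common seed culture, so the p-values measure the spread between these samples only, and that spread may be technical. The composition of the media was not used here.

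ATF4 belongs to the integrated stress response. Kinases such as GCN2, which senses uncharged tRNA, and PERK, which senses unfolded protein in the endoplasmic reticulum, phosphorylate the translation factor eIF2, and this lowers translation in general while it raises that of Atf4 mRNA. ATF4 then binds C/EBP-ATF elements, often as a dimer with a C/EBP protein, in genes for amino acid uptake, amino acid synthesis and tRNA charging and in genes that feed back on the response. Because much of this control acts on translation and on phosphorylation, mRNA levels show only a part of it.

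Of the 10 genes, 5 have a C/EBP-ATF element core within the window from 250 bases before to 50 bases after their RefSeq start site. The letters searched were TGATGNAA, on both strands, and the windows were those of RefSeq on build GRCm38.p6, in which all 10 genes were found by symbol. Of all 32851 windows, 1304 (3.97%) hold a match. The sequences are shown because they hold the core letters of the kind of element that ATF4 binds. They are written 5′ to 3′ on the strand of the gene, and capitals mark the match. The first 4 lines give the 250 bases before the start site, at chr6:7693210-7693459 for Asns, chr1:191183334-191183583 for Atf3, chr2:119350992-119351241 for Chac1 and chr3:50443614-50443863 for Slc7a11. The line for Trib3 gives 28 bases at chr2:152344029-152344056, which lie after its start site. Chac1 is on the plus strand and the other 4 genes are on the minus strand.
Asns: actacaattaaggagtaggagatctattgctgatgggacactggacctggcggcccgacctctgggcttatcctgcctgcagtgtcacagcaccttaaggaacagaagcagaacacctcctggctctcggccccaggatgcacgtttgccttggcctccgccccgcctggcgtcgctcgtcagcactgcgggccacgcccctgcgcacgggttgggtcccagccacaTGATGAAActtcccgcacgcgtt
Atf3: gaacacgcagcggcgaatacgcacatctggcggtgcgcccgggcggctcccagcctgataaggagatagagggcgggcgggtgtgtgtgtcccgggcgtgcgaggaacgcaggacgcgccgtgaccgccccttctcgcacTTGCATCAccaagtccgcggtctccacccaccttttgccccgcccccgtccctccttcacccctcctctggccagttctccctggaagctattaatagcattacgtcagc
Chac1: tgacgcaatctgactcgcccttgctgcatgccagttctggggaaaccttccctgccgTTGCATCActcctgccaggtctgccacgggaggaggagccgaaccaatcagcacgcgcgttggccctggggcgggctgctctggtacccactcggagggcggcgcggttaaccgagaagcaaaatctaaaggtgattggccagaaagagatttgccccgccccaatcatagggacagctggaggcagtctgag
Slc7a11: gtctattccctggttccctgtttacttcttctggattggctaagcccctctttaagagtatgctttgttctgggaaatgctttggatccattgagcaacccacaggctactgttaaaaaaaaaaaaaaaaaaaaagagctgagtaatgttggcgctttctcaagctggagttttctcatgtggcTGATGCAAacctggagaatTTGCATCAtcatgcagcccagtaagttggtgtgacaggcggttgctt
Trib3: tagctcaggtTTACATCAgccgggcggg
The match of Asns begins 23 bases before the start site, that of Atf3 110 bases before it and that of Chac1 193 bases before it. Slc7a11 has 2 matches, 66 and 47 bases before the start site, and that of Trib3 begins 14 bases after it. The window of Asns also holds TGACNNNGC, the core of the antioxidant response element, 172 bases before the start, and so do those of Phgdh (53 bases) and Sesn2 (36 bases), against 12.4% of all windows. The cAMP response element TGACGTCA (1.79% of all windows) and the E-box CACGTG (7.15%) are in the windows of 0 of the 10 genes. The motifs did not overlap each other in these windows, and a match describes the letters and not a bound site.

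Processed intensity is the scanner software's signal of a spot after background subtraction. Between 58.2% and 61.1% of the 59305 spots of an array that are not controls were well above background, and 0 were saturated. For the tests each array was divided by its 75th percentile, which lay between 343 and 374, and a gene was called where limma's adjusted p (Benjamini-Hochberg over all genes tested) was under 0.05. Changes are log2 differences ± SE with 2 cultures in each group. A large part of the array moved: 50.3% of all tested genes were called in NPC1 against EpiSC, 69.0% in NPC2 against EpiSC and 47.5% between NPC2 and NPC1. The median log2 change over all genes was -0.05, -0.10 and -0.04 in these comparisons. With the authors' deposited value table those medians were 0.07, 0.125 and 0.06, and the share of lower genes among the called ones went from 57.7%, 59.0% and 56.1% to 37.9%, 38.8% and 41.0%. The comparisons share arrays, so their values are set side by side and not counted as separate support.

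The markers moved as follows. Pou5f1, which encodes OCT4 of pluripotent cells, was 1.73-fold lower in NPC1 and 6.32-fold lower in NPC2 than in EpiSCs (adjusted p = 0.00138 and 1.59e-05, limma), and Sox1, an early neural gene, was 6.74-fold and 52.7-fold higher (adjusted p = 6.6e-05 and 5.86e-06). T, a primitive streak gene, was 17.3-fold and 23.3-fold lower (adjusted p = 5.79e-05 and 5.96e-06). Not every marker of a list went the same way. The shares of all genes called higher and lower were 21.3% and 29.0% in NPC1 against EpiSC. They were 28.3% and 40.7% in NPC2 against EpiSC, and 20.8% and 26.6% in NPC2 against NPC1. In NPC2 against EpiSC, 6 of 8 epiblast markers were called lower and 2 higher (Nanog and Otx2), 7 of 8 neural plate markers higher and 1 lower (Nes), and 8 of 9 tested streak, mesoderm and endoderm markers lower and 1 higher (Tbx6). In NPC2 against NPC1, 6 epiblast markers were lower and 2 higher, and 6 neural plate markers higher and 2 lower (Nes and Zic1). Of 8 tested fibroblast markers, 1 was higher (Thy1) and 2 lower (Col1a1 and Twist2) in NPC1 against EpiSC, and 4 higher (Col1a2, Pdgfrb, Postn and Thy1) and 2 lower (Dcn and Twist2) in NPC2 against EpiSC. Between NPC2 and NPC1, 5 fibroblast markers were higher and 2 lower in NPC2. Of the 9 tested streak, mesoderm and endoderm markers, 3 were higher and 3 lower in that comparison. The genes in these brackets were chosen after their values were seen. The summed intensity of 8 epiblast markers, as a multiple of the array's 75th percentile, was 401.2 and 413.5 in EpiSC A and B, 308.2 and 318.8 in NPC1 and 181.8 and 180.6 in NPC2. That of 8 neural plate markers went from 53.17 and 55.42 through 57.18 and 55.22 to 70.9 and 69.98. That of 9 tested streak, mesoderm and endoderm markers was 15.97 and 15.19 in EpiSCs and lay between 2.008 and 2.61 afterwards, with Gata4 above background in no group. Summed levels are carried by the brightest probes. That of 8 tested fibroblast markers was 8.401 and 8.79, then 11.3 and 10.91, then 14.07 and 13.37, with Lum above background in no group. These levels also differed between the groups, not all in the direction of the genes described here, and their part in the results was not tested. In bulk RNA, fewer cells of a type and less RNA per cell cannot be told apart.

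All 10 genes were lower on the second day than on the first. In NPC2 against NPC1, 10 of 10 were called lower, where 26.6% of all genes were, and their median log2 change was -0.82 against -0.04 for all genes. The first day was mixed. In NPC1 against EpiSC, 5 genes were called higher (Ddit4, Ddit3, Asns, Atf3 and Sesn2), where 21.3% of all genes were, and 1 was called lower (Slc7a11), where 29.0% of all genes were, while Trib3, Chac1, Psat1 and Phgdh did not pass. The median of the 10 was 0.15. Against EpiSCs, NPC2 cells had 8 of the 10 genes lower, where 40.7% of all genes were called lower, Ddit4 higher, where 28.3% of all genes were, and Asns not passing, with a median of -0.55 against -0.10 for all genes.

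**Figure D1:**
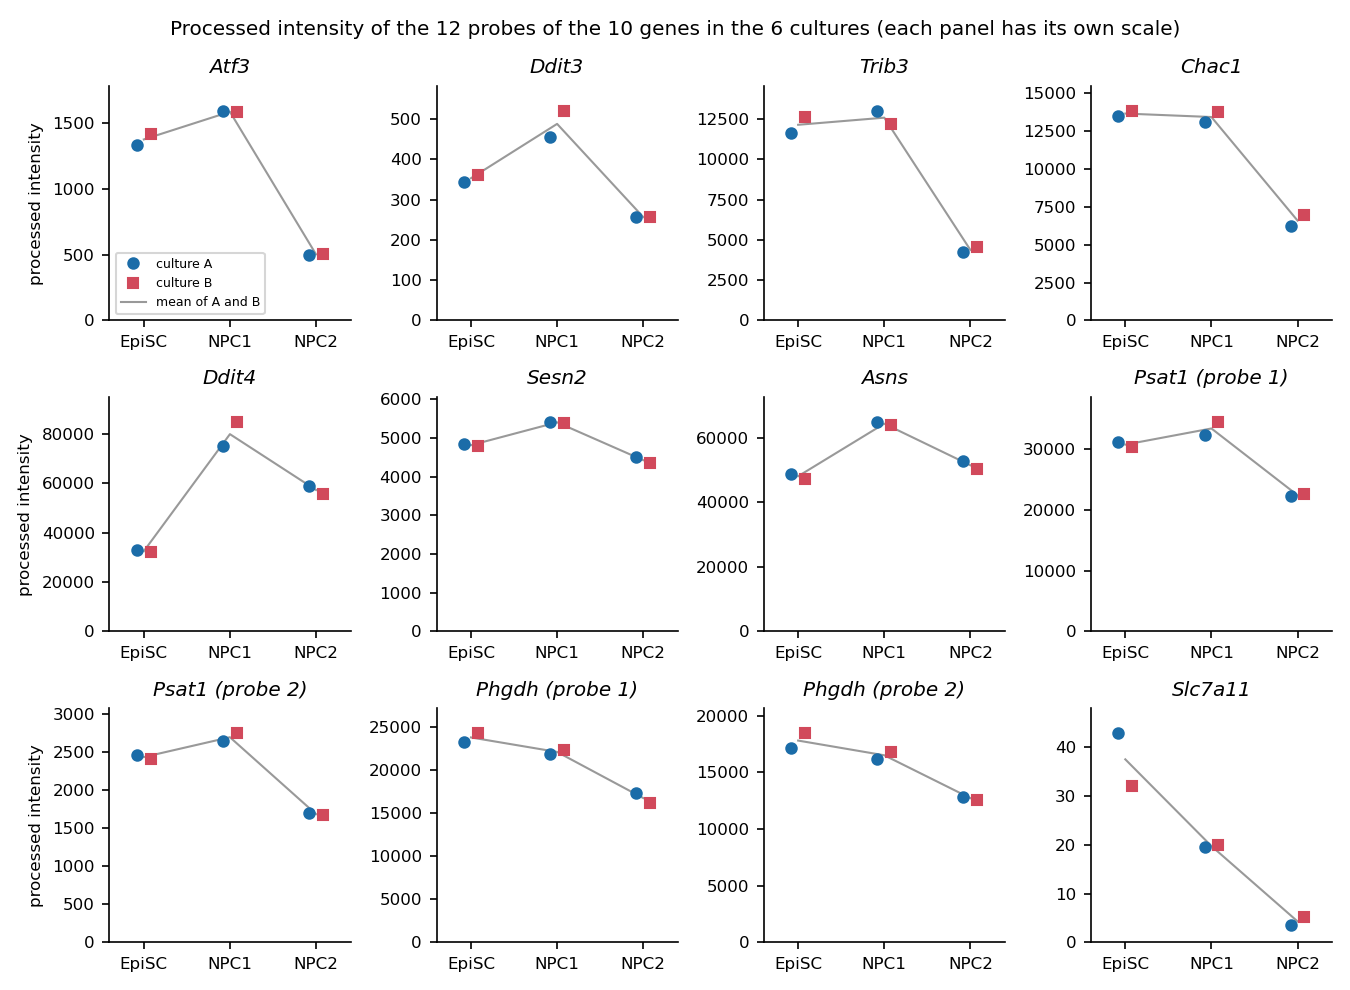
Processed intensity (linear, scanner units) of each of the 12 probes of the 10 genes in the 6 cultures, with circles for culture A, squares for culture B and a line through the group means. Each panel starts at 0 and has its own scale, and in each of the 12 panels both NPC2 cultures lie below both NPC1 cultures. These intensities are not scaled between arrays. The share of all probes on the array that lie apart in this way was not counted, so the 12 panels have no background to be read against. The 26.6% of all tested genes called lower in this comparison is another measure, by adjusted p.

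**Figure D2:**
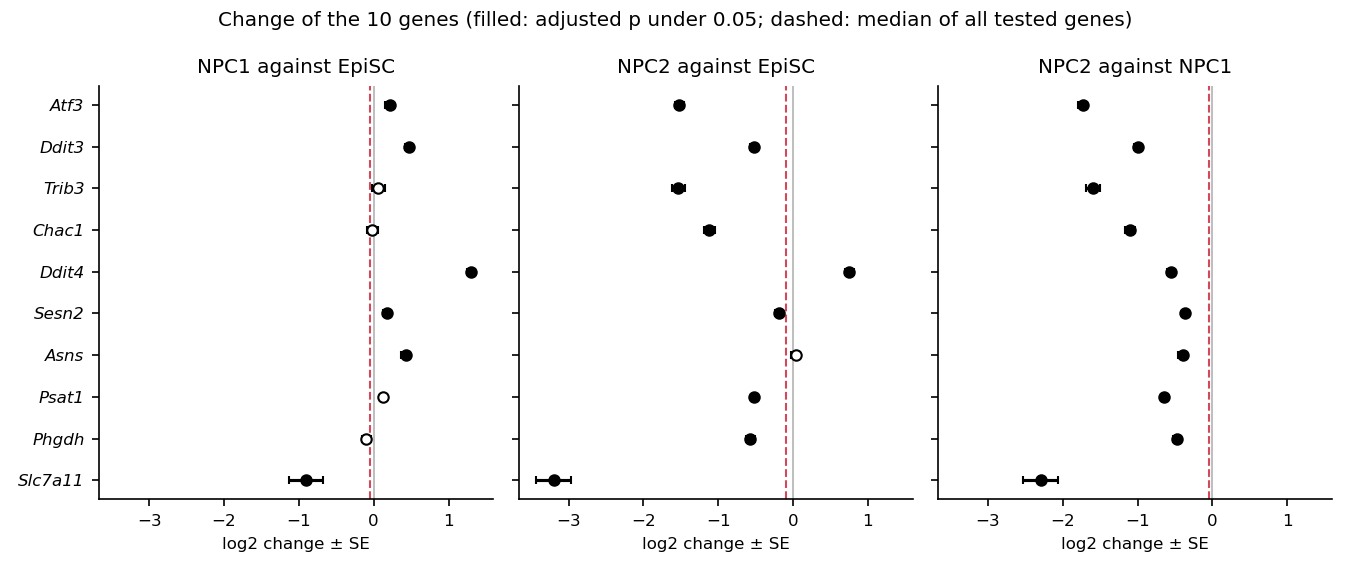
log2 change ± SE (limma) of the 10 genes in the 3 comparisons, filled where the adjusted p was under 0.05, with the median of all tested genes as a dashed line. In NPC2 against NPC1 all 10 points are filled and lie left of the dashed line at -0.04, and the Slc7a11 points for NPC2 are fitted values of a probe not above background there.

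Atf3 and Ddit3 encode transcription factors of the response. ATF3, itself a bZIP factor, mostly represses transcription and is induced by many stresses. The processed intensity of Atf3 was 1334 and 1414 in EpiSC A and B, 1589 and 1579 in NPC1 and 499 and 503.8 in NPC2. The 3 groups did not overlap, and NPC2 lay far below the others. Atf3 fell by 1.73 ± 0.06 on the log2 scale from NPC1 to NPC2 (3.32-fold, adjusted p = 7.82e-05) and was 2.86-fold lower in NPC2 than in EpiSCs (adjusted p = 3.63e-05). The step up on the first day was small, 0.21 ± 0.06 (1.16-fold, adjusted p = 0.033). It was called in 8 of 18 other settings and lost without EpiSC A (adjusted p = 0.153), EpiSC B (0.075), NPC1 A (0.112), NPC2 A (0.0652) or NPC2 B (0.0673).

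Ddit3 encodes CHOP, a C/EBP family factor that promotes cell death in prolonged stress and pairs with other C/EBP proteins. Its intensity was 343.7 and 361.9 in EpiSCs, 455.9 and 519.3 in NPC1 and 256.7 and 256.3 in NPC2. NPC1 was the highest group and NPC2 the lowest, with no overlap. Ddit3 was 1.39-fold higher in NPC1 than in EpiSCs (0.47 ± 0.06, adjusted p = 0.00276), and from NPC1 to NPC2 it fell by 1.00 ± 0.06 on the log2 scale (adjusted p = 0.000269). NPC2 was 1.44-fold lower than EpiSCs (adjusted p = 0.00093).

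Trib3 and Chac1 act downstream of ATF4 and CHOP. Trib3 encodes a pseudokinase that binds ATF4 and restrains it and that inhibits AKT. Its intensity was 11654 and 12659 in EpiSCs, 13006 and 12192 in NPC1 and 4229 and 4534 in NPC2. EpiSC and NPC1 overlapped, and NPC2 was apart from both. The log2 change was 0.06 ± 0.09 in NPC1 against EpiSC (adjusted p = 0.598), and it turned to -0.04 with median scaling. From NPC1 to NPC2 Trib3 fell by 1.60 ± 0.09 on the log2 scale (3.02-fold, adjusted p = 0.000248), and NPC2 was 2.90-fold lower than EpiSCs (adjusted p = 0.000117).

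Chac1 encodes a γ-glutamyl cyclotransferase that breaks down glutathione. Its intensity was 13484 and 13805 in EpiSCs, 13087 and 13743 in NPC1 and 6221 and 6947 in NPC2. Here too EpiSC and NPC1 overlapped and NPC2 was the low group. The first-day change was -0.02 ± 0.07 (adjusted p = 0.863), and it was 0.11 with the value table. From NPC1 to NPC2 Chac1 fell 2.15-fold (SE 0.07 on the log2 scale, adjusted p = 0.000356) and was 2.17-fold lower in NPC2 than in EpiSCs (adjusted p = 0.000151).

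Ddit4 and Sesn2 encode restraints on mTORC1, the kinase complex that couples amino acid supply to growth. DDIT4, also called REDD1, acts through the TSC complex and is induced by hypoxia and glucocorticoids as well as by ATF4. Its intensity was 32836 and 32231 in EpiSCs, 75137 and 84899 in NPC1 and 58798 and 55938 in NPC2. Both neural plate groups lay above EpiSCs, with NPC1 on top and no overlap. Ddit4 was 2.47-fold higher in NPC1 than in EpiSCs (1.30 ± 0.05, adjusted p = 0.000171), and 428 genes, itself included, rose that much or more. It fell by 0.55 ± 0.05 on the log2 scale on the second day (1.46-fold, adjusted p = 0.00134) and stayed 1.69-fold above EpiSCs (0.75 ± 0.05, adjusted p = 0.000233). Of the 10 genes it alone was called higher in NPC2 than in EpiSCs as reported, while quantile normalization, the value table and scaling by the 75th percentile of probes above background on all arrays added Asns.

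Sesn2 encodes Sestrin 2, a leucine sensor that inhibits GATOR2. Its intensity was 4842 and 4793 in EpiSCs, 5414 and 5403 in NPC1 and 4507 and 4353 in NPC2. The groups did not overlap, but their distances were small. Sesn2 was 1.13-fold higher in NPC1 than in EpiSCs (0.18 ± 0.05, adjusted p = 0.043), a call found in 7 of 18 other settings and lost without EpiSC A (adjusted p = 0.134), EpiSC B (0.169), NPC1 A (0.13), NPC2 A (0.0778) or NPC2 B (0.0799). It fell by 0.36 ± 0.05 on the log2 scale from NPC1 to NPC2 (1.28-fold, adjusted p = 0.00469). NPC2 was 1.14-fold lower than EpiSCs (limma, adjusted p = 0.027), a call found in only 9 of 18 other settings. It was lost with no filter on dim probes (0.057) and with each probe tested (0.0503). Scaling by the 75th percentile of probes above background on all arrays lost it too (0.737). With a culture left out, the log2 change of Sesn2 ran from -0.20 to -0.17. The change turned to 0.02 with quantile normalization and to 0.04 with the value table.

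Asns, Psat1 and Phgdh encode enzymes that make amino acids. Asparagine synthetase, from Asns, makes asparagine from aspartate and glutamine and is a widely used readout of amino acid shortage. Its intensity was 48825 and 47319 in EpiSCs, 64830 and 63859 in NPC1 and 52691 and 50243 in NPC2. NPC1 stood above both other groups, and EpiSC and NPC2 lay close together. Asns was 1.35-fold higher in NPC1 than in EpiSCs (0.43 ± 0.06, adjusted p = 0.00418) and fell by 0.40 ± 0.06 on the log2 scale to NPC2 (1.32-fold, adjusted p = 0.00527). In NPC2 against EpiSC the change was 0.03 ± 0.06 (adjusted p = 0.632), and over the other settings it ran from -0.05 with median scaling to 0.26.

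PHGDH takes the first step of serine synthesis from glycolysis and PSAT1 the next. The Psat1 probe tested gave 31133 and 30381 in EpiSCs, 32372 and 34464 in NPC1 and 22302 and 22548 in NPC2. Its other probe gave 2459 and 2401, then 2636 and 2744, then 1696 and 1668, so both probes put the groups in the same order. From NPC1 to NPC2 Psat1 fell by 0.65 ± 0.04 on the log2 scale (1.57-fold, adjusted p = 0.00044), and by the other probe it was 1.68-fold lower (adjusted p over all probes 0.00103). NPC2 was 1.43-fold lower than EpiSCs (adjusted p = 0.000403). The first-day change of Psat1, 0.13 ± 0.04, did not pass (adjusted p = 0.065) and passed in 4 of 18 other settings.

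The Phgdh probe tested gave 23274 and 24278 in EpiSCs, 21872 and 22317 in NPC1 and 17345 and 16148 in NPC2. The other probe gave 17159 and 18476, 16232 and 16808, and 12874 and 12606. With both probes EpiSC was highest and NPC2 lowest. Phgdh fell by 0.47 ± 0.06 on the log2 scale from NPC1 to NPC2 (1.39-fold, adjusted p = 0.00252) and the other probe was 1.36-fold lower (adjusted p over all probes 0.0069). NPC2 was 1.48-fold lower than EpiSCs (adjusted p = 0.000691). The first-day change of Phgdh, -0.10 ± 0.06, did not pass (adjusted p = 0.212), and it was 0.03 with the value table.

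Slc7a11 encodes xCT, the cystine-glutamate exchanger whose cystine feeds glutathione synthesis. Its intensity was close to background, at 42.94 and 32.18 in EpiSCs, 19.48 and 20.06 in NPC1 and 3.491 and 5.142 in NPC2. The groups did not overlap, and the probe was not well above background on either NPC2 array. Slc7a11 was 1.87-fold lower in NPC1 than in EpiSCs (-0.90 ± 0.23, adjusted p = 0.028), a call found in 12 of 17 other settings and lost without EpiSC A (adjusted p = 0.113), NPC1 A (0.101) or NPC1 B (0.104). For NPC2 only a rough bound can be given, taken from the lowest signal of any probe well above background on each NPC2 array. By that bound Slc7a11 was at least 4.33-fold lower in NPC2 than in EpiSCs and at least 2.31-fold lower than in NPC1. The adjusted p values of the fitted changes, not of the bounds, were 0.000242 and 0.00145 (limma). With normexp background correction, which lifts dim probes, its log2 changes shrank to -0.32 on the first day, -0.65 over both days and -0.33 on the second. Each was called. The changes to NPC2 are then smaller than the bounds, which hold only for the scanner software's background subtraction.

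The 5 genes with a C/EBP-ATF core in the windows printed above included Slc7a11, for which only the rough bound of at least 2.31-fold lower in NPC2 than in NPC1 is given. The other 4 had log2 changes from -1.73 to -0.40 in that comparison, and the 5 genes without a match from -0.996 to -0.36, so the ranges overlapped. Among all tested genes with a window, 35.4% of the 342 with a match were called lower there and 26.2% of the 11362 without. The shares were 27.8% and 29.5% in NPC1 against EpiSC, and 43.6% and 40.9% in NPC2 against EpiSC. The 342 include 5 of the genes described, and these differences were not tested.

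Across the 6 arrays, the non-member genes nearest to each gene in profile were found by the root mean square difference of their log2 values, each centred on its own mean. For Atf3 they were Tnfaip3 (0.0605) and Prss8 (0.0724), and for Ddit3 Gm11627 (0.0298) and Trpv6 (0.0508). Ddit4 was nearest to Igdcc4 (0.0409) and Efcab10 (0.0481), and Trib3 to Igfbp6 (0.0539) and Ppl (0.0689). Chac1 was nearest to Grb14 (0.0329) and Ntf5 (0.0395), and Slc7a11 to Mfap3l (0.153) and Liph (0.161). Asns, Psat1, Phgdh and Sesn2 spanned less than 1 log2 unit over the arrays and were not matched. These 6 arrays form 3 groups, so a near match describes a like order of 3 levels.

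**Figure D3:**
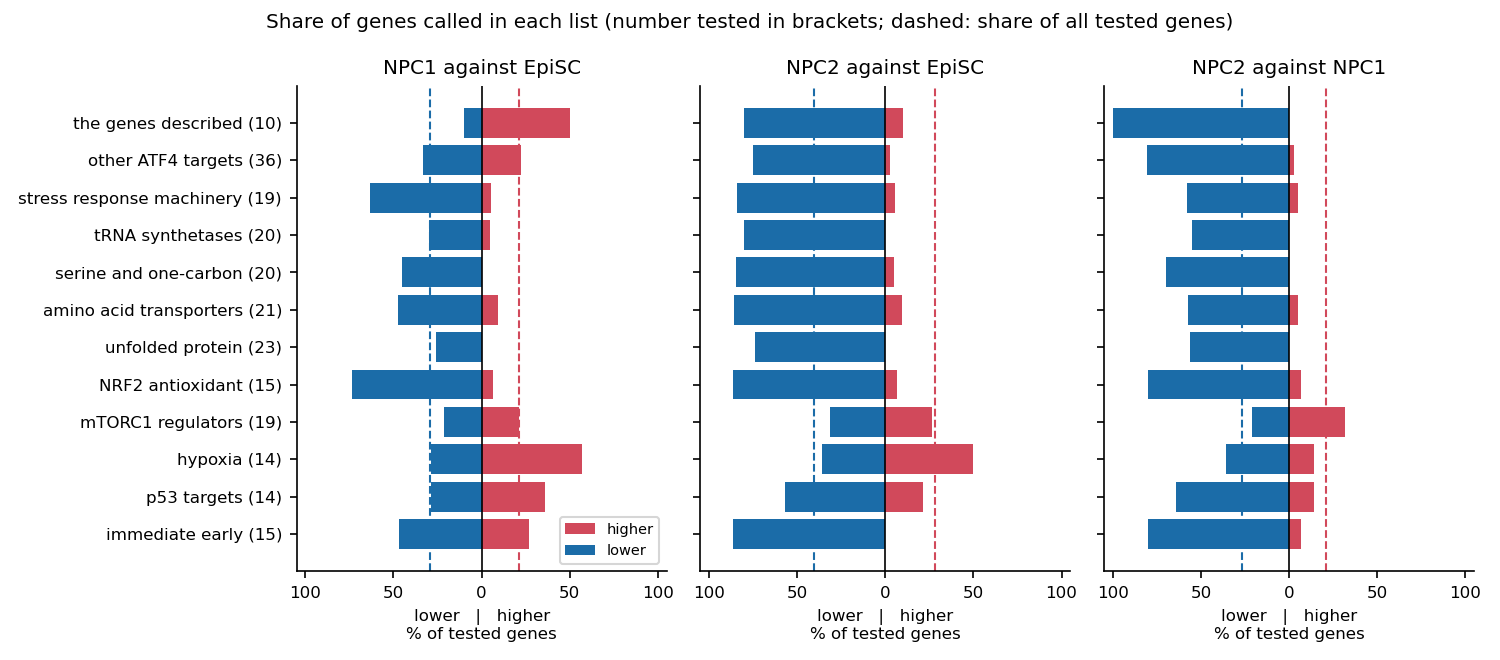
Share of the tested genes of each list that was called lower (left, blue) or higher (right, red) in the 3 comparisons, in % of the number in brackets, with the share among all 14773 tested genes as dashed lines. The genes described, 10 in number, are the top bar, and in NPC2 against NPC1 the bar of the other ATF4 targets, with 29 of 36 lower, is next to it. Some genes stand in several lists, Psph and Slc7a1 among them, so the bars are not separate sets.

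The machinery upstream of these genes was measured too. Atf4 itself, whose product is controlled in large part by translation, did not pass on the first day (-0.04 ± 0.07, adjusted p = 0.685, and 0.08 with the value table) and was 1.41-fold lower in NPC2 than in NPC1 (adjusted p = 0.00559). The other Atf4 probe gave -0.20 ± 0.07 on the first day (limma, adjusted p over all probes 0.102). By that probe Atf4 was 1.49-fold lower in NPC2 than in NPC1 (adjusted p over all probes 0.00582). Of 19 tested genes of the integrated stress response machinery, 1 was called higher and 12 lower in NPC1 against EpiSC, 1 and 16 in NPC2 against EpiSC, and 1 and 11 in NPC2 against NPC1, with medians of -0.29, -0.53 and -0.21. The 12 include the kinase genes Eif2ak1 and Eif2ak2, but also Eif2b1 to Eif2b5, Ppp1r15a and Ppp1r15b. The list mixes parts that drive the response with parts that oppose it, so its counts give no direction for the response. Among all genes, 21.3% were called higher and 29.0% lower in NPC1 against EpiSC. The shares were 28.3% and 40.7% in NPC2 against EpiSC, and 20.8% and 26.6% in NPC2 against NPC1. Atf5, a close relative of Atf4, was the one called higher on the first day (0.58 ± 0.04, adjusted p = 0.00078) and was 1.38-fold lower on the second (adjusted p = 0.00118), the same 2 directions as Asns and Ddit3. Cebpb, a partner of ATF4, was 4.55-fold lower in NPC2 than in EpiSCs (adjusted p = 4.68e-05) and 3.34-fold lower than in NPC1 (adjusted p = 0.000223). Nupr1, a stress-induced chromatin protein that is also an ATF4 target, was 3.20-fold lower in NPC2 than in EpiSCs (adjusted p = 0.000231), and Ppp1r15a, which encodes the eIF2 phosphatase subunit GADD34, was 1.80-fold lower (adjusted p = 7.86e-05).

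The eIF2 kinase genes Eif2ak1, Eif2ak2 and Eif2ak3 were called lower in NPC2 than in EpiSCs, where 40.7% of all genes were. Eif2ak4 was called higher there, where 28.3% of all genes were. Eif2ak4, which encodes GCN2, gave -0.02 ± 0.06 on the first day (adjusted p = 0.811, and 0.11 with the value table) and was the one gene of the machinery called higher in NPC2 than in NPC1 (1.19-fold, adjusted p = 0.0209). Eif2ak3, which encodes PERK, was 1.39-fold lower in NPC2 than in NPC1 (adjusted p = 0.00342). Eif2ak1, which encodes the heme-regulated kinase, was 1.53-fold lower in NPC1 and 1.74-fold lower in NPC2 than in EpiSCs (adjusted p = 0.00145 and 0.000248).

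Other known ATF4 targets fell on the second day in most cases. Of 36 tested, 1 was called higher and 29 lower in NPC2 against NPC1, with a median of -0.64, and 1 and 27 in NPC2 against EpiSC, with a median of -0.69. Among all genes, 20.8% were called higher and 26.6% lower in NPC2 against NPC1, and 28.3% and 40.7% in NPC2 against EpiSC. On the first day 8 were higher and 12 lower, where 21.3% and 29.0% of all genes were. Their median of -0.07 changed sign over the settings (-0.18 to 0.05). Cth, which makes cysteine, was 7.07-fold lower in NPC2 than in EpiSCs (adjusted p = 1.15e-05). Fgf21, a secreted stress hormone not well above background in NPC2, was at least 8.26-fold lower by the bound used for Slc7a11 (adjusted p of the fitted change = 0.0041). Cdsn was 7.15-fold lower (adjusted p = 4.74e-05). Vldlr, a lipoprotein receptor gene, was the exception, at 2.22-fold higher in NPC1 and 3.79-fold higher in NPC2 than in EpiSCs (adjusted p = 0.000142 and 1.18e-05).

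3 further targets, chosen after their values were seen, stand next to the genes described by function. Psph encodes the enzyme after PSAT1 in serine synthesis, and it was 1.60-fold lower in NPC2 than in NPC1 (adjusted p = 0.0011). Slc3a2 encodes the heavy chain that pairs with xCT, and it was 1.59-fold lower (adjusted p = 0.000446). Gdf15, a secreted stress signal, was 4.82-fold lower (adjusted p = 0.000184).

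Genes that use or supply amino acids were counted beside these. In NPC2 against EpiSC, 40.7% of all tested genes were called lower and 28.3% higher, with a median of -0.10. Of 20 cytosolic tRNA synthetase genes, 16 were called lower and 0 higher in NPC2 against EpiSC by limma (at an unadjusted p under 0.05, the count of higher genes was 0), with a median of -0.36. Hars was 1.60-fold and Tars 1.55-fold lower (adjusted p = 0.000521 and 0.000301). Sars, the one synthetase gene called higher on the first day (1.29-fold, adjusted p = 0.00938), was 1.35-fold lower in NPC2 than in NPC1 (adjusted p = 0.00527). Of 20 serine, glycine and one-carbon genes, 1 was higher and 17 lower in NPC2 against EpiSC, with a median of -0.48. Psph, Shmt2, Mthfd2 and Aldh1l2 are among these 17 and were also counted among the other ATF4 targets. Tdh, the threonine dehydrogenase on which mouse pluripotent cells rely, was 5.83-fold lower in NPC1 and 41.0-fold lower in NPC2 (adjusted p = 0.000417 and 1.73e-05). Slc25a32, a mitochondrial folate carrier gene, was 2.58-fold and Shmt1 2.36-fold lower in NPC2 than in EpiSCs (adjusted p = 2.72e-05 and 0.00013).

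Of 21 tested amino acid transporter genes, 2 were called higher and 18 lower in NPC2 against EpiSC, where 28.3% and 40.7% of all genes were. Their median was -0.69, against -0.10 for all genes. The 18 include Slc7a1, Slc7a3, Slc3a2 and Slc1a5, which were also counted among the other ATF4 targets. Slc7a7, which like Slc7a11 encodes a light chain that pairs with the Slc3a2 product, was 3.88-fold lower in NPC1 and 13.0-fold lower in NPC2 (adjusted p = 7.69e-05 and 5.86e-06). The cationic amino acid transporter genes Slc7a3 and Slc7a1 were 4.34-fold and 2.98-fold lower in NPC2 (adjusted p = 1.42e-05 and 0.000115).

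Of 23 unfolded protein genes under ATF6 and XBP1, 17 were lower and 0 higher in NPC2 against EpiSC by limma (at an unadjusted p under 0.05, the count of higher genes was 0), with a median of -0.30. Among all genes, 40.7% were called lower and 28.3% higher there, with a median of -0.10. Hspa5, the endoplasmic reticulum chaperone BiP, was 1.24-fold lower in NPC2 than in EpiSCs (adjusted p = 0.00336), and its first-day change of -0.07 ± 0.05 did not pass (adjusted p = 0.259, and 0.05 with the value table). Dnajb11, Manf and Creld2 were 1.84-fold, 1.81-fold and 1.73-fold lower in NPC2 than in EpiSCs (adjusted p = 6.93e-05, 0.00016 and 0.000132).

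Slc7a11 is also a target of NRF2, the antioxidant factor encoded by Nfe2l2. Nfe2l2 was 1.25-fold lower in NPC1 and 2.62-fold lower in NPC2 than in EpiSCs (adjusted p = 0.00883 and 4.43e-05). Of 15 NRF2 pathway genes, 1 was higher and 11 lower in NPC1 against EpiSC, and 1 and 13 in NPC2 against EpiSC, with medians of -0.28 and -0.998. Among all genes, 21.3% were higher and 29.0% lower in NPC1 against EpiSC, and 28.3% and 40.7% in NPC2 against EpiSC. Osgin1 was 4.86-fold, Hmox1 4.06-fold and Nqo1 3.67-fold lower in NPC2 (adjusted p = 0.000277, 1.25e-05 and 6.81e-05).

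Ddit4 and Sesn2 belong to mTORC1 control, and the other genes there went both ways. Of 19 regulators, 5 were called higher and 6 lower in NPC2 against EpiSC, shares near or below those of all genes, and the median of 0.05 changed sign over the settings. Sesn1 and Sesn3, the relatives of Sesn2, were 1.79-fold and 1.86-fold higher in NPC2 than in EpiSCs (adjusted p = 0.000171 and 0.000106), where Sesn2 was 1.14-fold lower. Deptor, an inhibitor of mTOR, was 6.99-fold lower (adjusted p = 1.84e-05), Castor1, an arginine sensor, 2.65-fold lower (adjusted p = 0.000201), and Rragd, which encodes a Rag GTPase, 2.21-fold higher (adjusted p = 5.96e-05).

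Ddit4 is also induced by hypoxia, and hypoxia genes were measured beside it. Of 14 tested, 8 were higher and 4 lower in NPC1 against EpiSC, with a median of 0.43, where 21.3% and 29.0% of all genes were called. In NPC2 against EpiSC 7 were higher and 5 lower, where 28.3% and 40.7% of all genes were. Adm was 9.94-fold higher in NPC1 than in EpiSCs (adjusted p = 0.000156) and 6.20-fold lower in NPC2 than in NPC1 (adjusted p = 0.000196). Slc2a1, a glucose transporter gene, was 3.29-fold higher in NPC1 and 3.15-fold higher in NPC2 than in EpiSCs (adjusted p = 9.73e-05 and 1.99e-05), and Egln3, a prolyl hydroxylase gene, was 2.63-fold higher in NPC1 (adjusted p = 0.00181). Ndrg1 was 2.15-fold lower in NPC1 than in EpiSCs (adjusted p = 0.00108), and Car9, Hif1a and Pdk1, named after their values were seen, were called lower as well. The part of these genes' inducer in the Ddit4 values was not tested.

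Atf3 also responds to growth factor and p53 signals. Of 15 immediate early genes, 13 were lower and 0 higher in NPC2 against EpiSC by limma (at an unadjusted p under 0.05, the count of higher genes was 0), with a median of -1.59. Ier3 was 1.74-fold higher in NPC1 than in EpiSCs (adjusted p = 0.00177) and 15.5-fold lower in NPC2 than in NPC1 (adjusted p = 4.05e-05), the order of levels that Atf3 had. Junb was 7.67-fold lower in NPC2 than in EpiSCs (adjusted p = 2.69e-05). Fosl1, not well above background there, was at least 7.02-fold lower by the bound used for Slc7a11 (adjusted p of the fitted change = 0.00212). Of 14 tested p53 targets, 3 were higher and 8 lower in NPC2 against EpiSC, where 28.3% and 40.7% of all genes were, and Trp53 itself was 1.46-fold lower (adjusted p = 0.000795). Mdm2 and Plk2 were 2.17-fold and 2.56-fold lower (adjusted p = 4.3e-05 and 5.8e-05).

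Relatives of the genes described (other sestrins, C/EBP and ATF factors, tribbles and transporters) were counted too. Of 18 tested, 4 were higher and 9 lower in NPC2 against EpiSC, near the 28.3% and 40.7% of all genes, with a median of -0.20 that changed sign over the settings. Of 8 control genes, 4 were called lower and 0 higher in NPC2 against NPC1 by limma (at an unadjusted p under 0.05, the count of higher genes was 0). Among all genes, 26.6% were called lower and 20.8% higher there. Hprt, a purine salvage gene, fell by 0.59 ± 0.06 on the log2 scale from NPC1 to NPC2 (adjusted p = 0.00131) and was 1.88-fold lower in NPC2 than in EpiSCs (adjusted p = 0.000154). Its second-day fall stands beside falls of 0.55 for Ddit4, 0.47 for Phgdh, 0.40 for Asns and 0.36 for Sesn2, and these differences were not tested. Actb was 1.16-fold lower in NPC2 than in NPC1 (adjusted p = 0.0257), and Gapdh gave -0.02 ± 0.06 (adjusted p = 0.745), with the sign turned under quantile normalization, the value table and scaling by the 75th percentile of probes above background on all arrays.

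**Figure D4:**
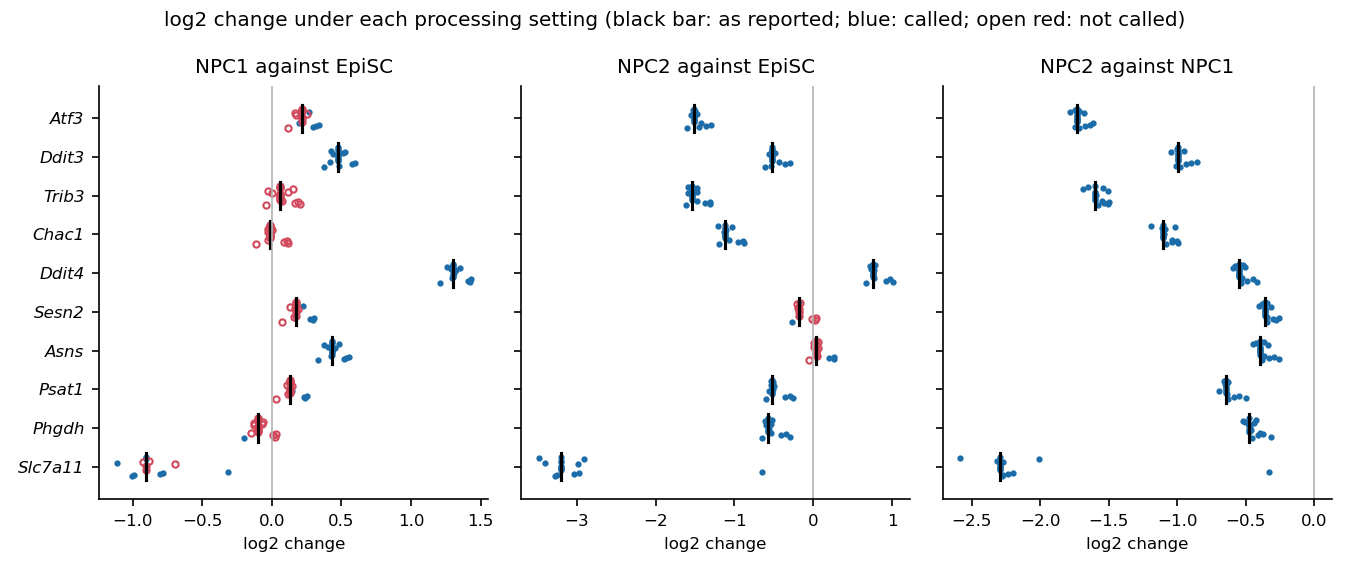
log2 change of each of the 10 genes in the 3 comparisons under each processing setting, with a black bar for the value as reported, filled blue points where the gene was called and open red points where it was not. In NPC2 against NPC1 all points lie left of 0 and are filled, while in NPC1 against EpiSC Trib3, Chac1 and Phgdh have points on both sides of 0.

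The second-day decrease held in every setting run. In NPC2 against NPC1, 10 of 10 genes were called lower under 17 of the 18 alternatives, and 9 of 9 under the filter that asks for signal above background on all 6 arrays, which left Slc7a11 untested. The share of all genes called lower there ran from 16.1% with no filter on dim probes to 28.6% with the filter on all 6 arrays. The gap between the median of the 10 genes and that of all genes, -0.78 as reported, was -0.55 with normexp background correction and -0.75 with quantile normalization. On the first day Ddit3, Ddit4 and Asns were called higher under all 18 alternatives.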

How the data were processed

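Per the labels' protocols, TRI Reagent was used to extract total RNA from the 6 cultures, and 100 ng of each was labelled with Cy3 for a 1-colour array. Per the file headers, the design is 028005 with all arrays on 1 slide, and the software was Agilent Feature Extraction, version 10.10.1.1, run with protocol GE1_1010_Sep10. The deposited processed intensity is linear and background-subtracted, with no scaling from array to array. In the value table that the authors deposited, this intensity is multiplied by a constant for each array, from 2.10 to 2.41, and not centred. Its medians were 52.5, 51.3, 61.8, 59.6, 65.3 and 64.3, and the basis of the constants is unknown here.

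Spots that are controls or marked as outliers were dropped, and repeated spots were averaged. Of 28372 probes with a RefSeq accession, 26744 were named through the GRCm38.p6 gene table, used for names. For the tests, log2 intensities were centred on the 75th percentile of their array, and each gene took its brightest probe that was well above background on both arrays of 1 or more groups. limma 3.58.1 (R 4.3.3, lmFit and eBayes, two-sided) was fitted once to the 6 arrays with 3 residual and 1.88 prior degrees of freedom, after it was tested on simulated data. The number of arrays limits the precision, and the median SE was 0.0678. Alternatives covered scaling, background correction, the filter, the choice of probe, the replicate block and leaving out each culture.

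The genes and gene lists were chosen with earlier results of these data known. Some lists share genes, so their counts are not separate support. The rule named the 10 genes, 10 always named (such as Atf4 and Gapdh), the 3 called members of a list with the largest change in NPC1 or NPC2 against EpiSC, and the nearest 2 profiles. Values of some are not reported here.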

Additional observations from a re-analysis of the deposited data

How the results depend on the processing

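Over 18 alternatives the 10 genes gave 537 values, of which 485 kept their direction and their side of the threshold, 33 lost the call, 8 gained it and 11 changed sign. In NPC1 against EpiSC, 3 genes were called higher, in place of 5, with median scaling, no filter on dim probes, each probe tested, the replicate block, or only the 2 groups compared. Of all genes or probes tested, 12.8% (no filter) to 19.9% (only the 2 groups compared) were called higher in these settings. The count was 6 with quantile normalization (23.9% of all genes) and the value table (30.1%). It was also 6 with the mean of probes (21.2%) and the 75th percentile of probes above background (28.4%), and 4 with normexp (20.9%). There 2 were called lower with median scaling, and 0 with no filter, with signal above background on all arrays and with the replicate block, and 0 to 1 when a culture was left out. Of all genes, 39.1% were called lower in NPC1 against EpiSC with median scaling and 17.0% with no filter. The shares were 31.8% with signal above background on all arrays and 26.7% with the replicate block. In NPC2 against EpiSC, 2 of the 10 genes were called higher with quantile normalization and with the value table. The count was also 2 with the 75th percentile of probes above background on all arrays. Of all genes, 33.7%, 41.7% and 37.5% were called higher in these settings. The count of lower genes was 7, in place of 8, in these settings, with no filter on dim probes and with each probe tested. Of all genes or probes, 26.4% (value table) to 32.9% (quantile normalization) were called lower there. With signal above background on all arrays, 7 of 9 were lower, where 42.7% of all genes were. Testing each probe called 11183, 18285 and 10679 of 33536 probes in the 3 comparisons, and leaving out a culture called 4835 (without EpiSC B) to 6646 genes in NPC1 against EpiSC. The cause of these shifts was not tested.

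Signs turned in small changes that did not pass, Sesn2 excepted. In NPC1 against EpiSC, quantile normalization, the 75th percentile of probes above background and the value table gave 0.116, 0.0856 and 0.107 for Chac1, 0.0224, 0.0048 and 0.0266 for Phgdh, 0.0767, 0.0837 and 0.1055 for Eif2ak4, and 0.0389, 0.0275 and 0.0493 for Hspa5. The last 2 of these gave 0.0620 and 0.0838 for Atf4. Median scaling gave -0.0389 for Trib3, and -0.0489 for Asns in NPC2 against EpiSC. There Sesn2 was 0.0184 with quantile normalization and 0.0383 with the value table. Gapdh in NPC2 against NPC1 was 0.0683, 0.0363 and 0.0749. With a culture left out, the range in NPC1 against EpiSC was -0.0304 to 0.152 for Trib3, -0.0829 to 0.0031 for Atf4 and -0.0549 to 0.0185 for Eif2ak4, and for Gapdh in NPC2 against NPC1 it was -0.0820 to 0.0322.

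The letters A and B pair no samples by the labels, and the deviations of same-lettered cultures correlated at 0.0081, 0.0062 and -0.045. With the replicate block, 6867, 9873 and 6477 genes were called in the 3 comparisons, against 7434, 10196 and 7013. The block took away the first-day calls of Atf3 (adjusted p = 0.0626), Sesn2 (0.0539) and Slc7a11 (0.0548).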
